A study of Mus musculus with 6 samples.

Results

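The genes described here encode 4 integrin chains, Itgb3, Itgb5, Itgb7 and Itga6, which are all the integrin chains that the authors' deposited list of changed genes names. They are 4 of the 522 genes with a name in the deposited tables, and each has 1 probe set. The members were chosen by their change with sRANKL, because only genes that the authors had called changed at least 2-fold carry a name in these data. Their changes between the treatments are therefore given as a description, with no test.

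The study compared osteoclast precursors from the bone marrow of SV129/BL6 mice on 6 Affymetrix GeneChip Mouse Gene 1.0 ST arrays. In each of 3 experiments the marrow of 3 mice was pooled, and the cells were cultured with 10 ng/ml M-CSF for 48 hours. Non-adherent cells were used, and a mononuclear layer was enriched over Ficoll, a step that the methods place after this culture and the labels before it. The resulting cells, osteoclast precursors among them, were split between partner dishes. A dish received 20 ng/ml M-CSF and 200 ng/ml sRANKL, and its partner dish 20 ng/ml M-CSF alone. RNA was extracted after 2 days. Both groups thus received M-CSF, the growth factor that keeps macrophage precursors alive, and they differed in RANKL, the cytokine that starts osteoclastogenesis. The cells had no genetic change, the wild-type mice used for monocyte cultures were 6 to 12 weeks old, with no separate age for the array pools, and the sRANKL was purified from a bacterial expression construct. The labels call the cells monocytes, but also state that precursors were a minority of the enriched layer, so the dishes may have held a mixture.

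Integrins are cell surface receptors made of 1 alpha and 1 beta chain, and the pair decides which matrix protein or cell surface ligand is bound. Alpha v can pair with beta 3 or with beta 5, and both pairs bind vitronectin through the RGD sequence. The alpha v beta 3 receptor is the main integrin of mature osteoclasts and organises their actin ring on bone, whereas alpha v beta 5 is found on macrophage precursors. Beta 7 pairs with alpha 4 or alpha E on leukocytes and binds MAdCAM-1 or E-cadherin. Alpha 6 pairs with beta 1 or beta 4 to form laminin receptors.

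Itgb3 was higher with sRANKL in all 3 experiments. The deposited list places its probe set (10381809, Entrez 16416) on chromosome 11 from 104469314 to 104528689 on the plus strand, and gives no genome build. RMA intensity, the linear signal after the authors' normalisation, reached 271, 233 and 203 in the sRANKL dishes of Experiments 1, 2 and 3. In their M-CSF alone dishes it was 145, 98.8 and 103. Every array with sRANKL was above every array with M-CSF alone, and the array of Experiment 1 was the brightest in both groups. On average, intensity rose from 115 ± 25.4 (SD, n = 3) without sRANKL to 236 ± 33.7 (SD, n = 3). The increase was 1.87-fold, 2.36-fold and 1.98-fold within Experiments 1, 2 and 3, a mean log2 change of 1.04 ± 0.17 (SD, n = 3). As arrays measure a whole dish, more cells with the transcript and more transcript per cell cannot be told apart.

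Itgb5, the chain that can take the place of beta 3 beside alpha v, was lower with sRANKL in all 3 experiments. Its probe set (10435305, Entrez 16419) is listed on chromosome 16 from 33829751 to 33949232 on the plus strand. Intensity was 1226, 1121 and 1017 with sRANKL, against 3294, 2930 and 3391 with M-CSF alone, in Experiments 1, 2 and 3. The groups were far apart for their spread, with the brightest sRANKL array 1.26 log2 units below the dimmest array with M-CSF alone. Itgb5 was at 0.372, 0.382 and 0.3 of its M-CSF alone level in the 3 experiments, and the mean log2 change was -1.52 ± 0.19 (SD, n = 3).

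The comparison of these alternative alpha v partners was made within each experiment, as the difference between their log2 changes. Multiplying a whole array by a constant does not change a shift of this kind, but other normalisation can. The levels of the chains were not set against each other, since probe sets differ in brightness for reasons other than transcript number. Signal for Itgb3 relative to Itgb5 was 5.03, 6.17 and 6.61 times as high with sRANKL as with M-CSF alone in Experiments 1, 2 and 3. The mean shift was 2.56 ± 0.20 on the log2 scale (SD, n = 3), which is 5.90-fold. The direction of the shift follows from the choice of the members, and in each experiment the fall of Itgb5 was larger on the log2 scale than the rise of Itgb3. Itgb3 was dim with M-CSF alone, at a mean log2 intensity of 6.83, where the medians of those arrays were 8.16 to 8.44. Whether this low signal made its rise look smaller was not tested. When 1 experiment was left out, the mean shift was between 2.48 and 2.68. Alpha v itself (Itgav) has no name in these tables and was not analysed here, so the amount of either complete receptor is not measured.

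**Figure D1:**
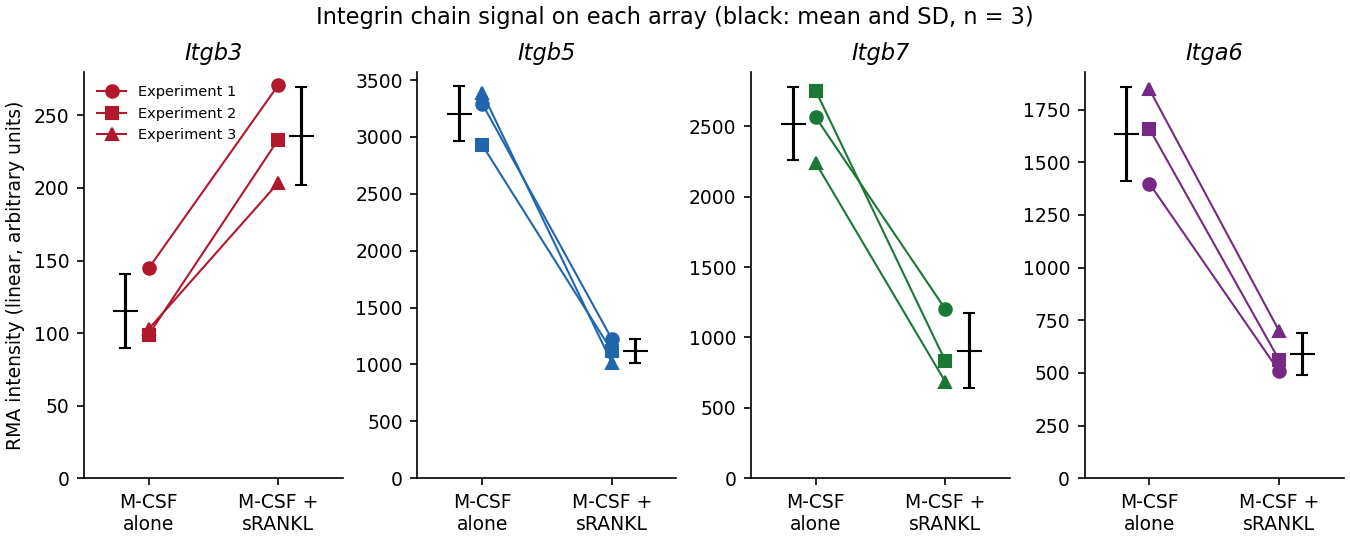
RMA intensity (linear axis from 0) of the 4 integrin chains on each array, with lines that join the partner dishes of an experiment and black bars for mean and SD (n = 3). Itgb3 was higher with sRANKL in each experiment, from a mean of 115 to 236, and the other chains were lower, with no overlap between the groups.

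Itgb7 was also lower with sRANKL in each experiment. Its probe set (10432957, Entrez 16421) is listed on the minus strand of chromosome 15 between 102046426 and 102062366. Intensity was 1201, 832 and 684 in the sRANKL dishes, against 2562, 2751 and 2238 in the partner dishes of Experiments 1, 2 and 3. The sRANKL array of Experiment 1 stood above the other 2, but still 0.90 log2 units below the nearest array with M-CSF alone. Itgb7 was at 0.469 of its M-CSF alone level in Experiment 1, and at 0.302 and 0.306 in Experiments 2 and 3. The mean log2 change was -1.51 ± 0.36 (SD, n = 3), the widest spread of the 4 chains. Without Experiment 1 the level with sRANKL was 0.304 of that with M-CSF alone, and with all 3 experiments it was 0.351.

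Itga6, the alpha chain of laminin receptors, was the third chain that was lower with sRANKL. Its probe set (10472820, Entrez 16403) is listed on chromosome 2 from 71624997 to 71694828 on the plus strand. The sRANKL dishes had intensities of 509, 563 and 700.3, and the partner dishes 1399, 1659 and 1846, in Experiments 1, 2 and 3. In both groups Experiment 1 was the dimmest and Experiment 3 the brightest, so the partner dishes kept the same order. The level with sRANKL was 0.364, 0.339 and 0.379 of that with M-CSF alone, a mean log2 change of -1.47 ± 0.08 (SD, n = 3). This spread between experiments was smaller than the spread among dishes of the same group, which was 0.24 with sRANKL and 0.20 with M-CSF alone.

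The falls of Itgb5, Itgb7 and Itga6 could not be ordered by size. Their mean log2 changes of -1.52, -1.51 and -1.47 lay closer together than their spread. The within-experiment differences between Itgb5 and Itgb7, between Itgb5 and Itga6 and between Itgb7 and Itga6 had SDs of 0.34, 0.27 and 0.36 log2 units over the 3 experiments, respectively, and no difference had the same sign in all 3 experiments. The shift of Itgb3 relative to Itgb7 was 2.55 ± 0.50 (SD, n = 3) and relative to Itga6 2.52 ± 0.25 (SD, n = 3) on the log2 scale. Both were close to its shift relative to Itgb5. The shift relative to Itgb7 was 4.00-fold in Experiment 1 against 7.80-fold and 6.49-fold in Experiments 2 and 3. The sRANKL dish of Experiment 1 had the highest Itgb7 signal of its group. The log2 change of Itgb3 was also smallest in Experiment 1, at 0.91 against 1.24 and 0.99 in Experiments 2 and 3.

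**Figure D2:**
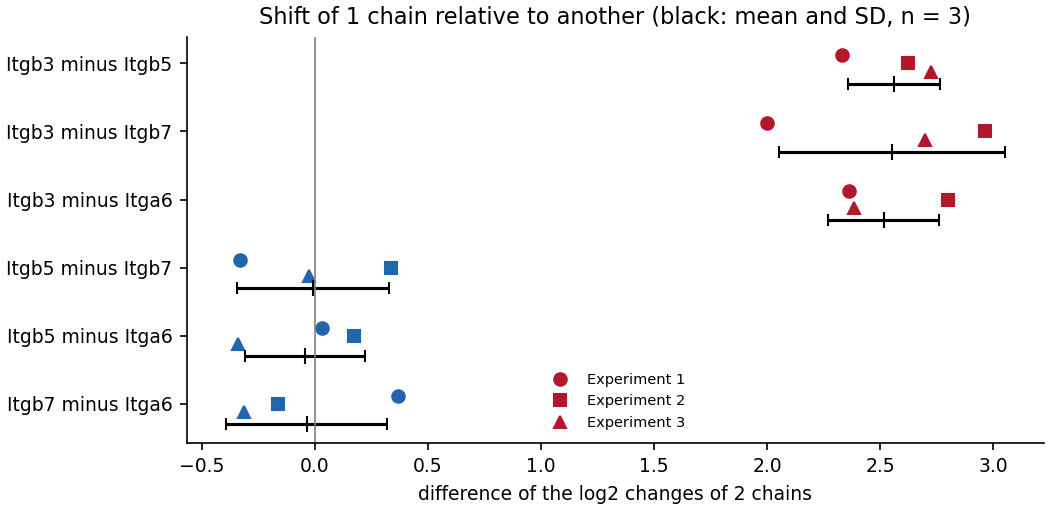
Difference between the log2 changes of 2 chains within each experiment (symbols), with black bars for mean and SD (n = 3) and 0 marking chains that changed alike. Itgb3 moved by 2.52 to 2.56 log2 units on average relative to each other chain, while the differences among the 3 lower chains lay on both sides of 0.

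To show sequence beside the changes, promoters are printed for the 2 chains, Itgb5 and Itgb7, that were matched by symbol in RefSeq promoter sequences of build GRCm38.p6. These cover 250 bases before and 50 bases after each start. Itgb3 and Itga6 were not matched in that table and are not shown. The 250 bases before the start are printed below, 5′ to 3′ on the strand of the gene, at chr16:33829415-33829664 (plus strand) for Itgb5 and chr15:102231936-102232185 (minus strand) for Itgb7. Capitals mark matches to the GC box GGGCGG or the E box CANNTG on either strand.
Itgb5: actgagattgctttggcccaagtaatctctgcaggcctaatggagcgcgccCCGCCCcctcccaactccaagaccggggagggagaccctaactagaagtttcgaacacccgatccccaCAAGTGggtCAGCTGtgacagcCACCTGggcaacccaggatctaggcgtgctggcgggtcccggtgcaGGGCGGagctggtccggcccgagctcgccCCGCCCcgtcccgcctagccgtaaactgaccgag
Itgb7: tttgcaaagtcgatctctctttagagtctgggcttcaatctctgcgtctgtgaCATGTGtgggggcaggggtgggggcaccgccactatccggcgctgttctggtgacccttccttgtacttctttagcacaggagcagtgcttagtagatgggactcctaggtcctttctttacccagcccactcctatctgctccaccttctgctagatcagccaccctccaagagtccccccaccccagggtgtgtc

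Both promoters held E boxes, and GC boxes were found only for Itgb5. Over the whole window, Itgb5 held 20 CpG dinucleotides, more than 73.5% of the 32851 promoters in the table, and 65.7% of its bases were G or C. Itgb7 held 5 CpG, below the median of 7, and 56.3% of its bases were G or C. Itgb5 had 3 GC boxes (GGGCGG, the letters bound by Sp1 and its relatives), which 35.7% of all promoters hold at least once, and Itgb7 had none. E boxes (CANNTG), which 72.3% of promoters hold, were found 3 times for Itgb5 and 2 times for Itgb7. Of those for Itgb7, 1 begins at position 23 after the start, outside the printed bases. The letters GAGGAA, the core of sites for the myeloid factor PU.1, occur in 28.3% of promoters. They were found 1 time for Itgb7, on the opposite strand from position 3 after the start, and not for Itgb5. Neither promoter held the AP-1 letters TGANTCA, found in 7.81% of promoters, or the NFAT core GGAAAA, found in 23.4%. No match overlapped another. These matches describe letters only.

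The 4 chains were read against all rows of the table. With the named genes reduced to their brightest probe set there were 2859 rows, and log2 intensities were compared with limma at an adjusted p under 0.05. With sRANKL, 44.9% of rows were higher, and 1 of the 4 chains was. A further 33.2% of rows were lower, and 3 of the 4 chains were. The groups did not overlap in 77.8% of rows, and in all 4 chains. Because the chains were chosen on this contrast and the table had been filtered before deposit, nothing is read from these counts. The median log2 change was 0.42 over all rows and 1.17 over the named genes. Among the 341 named genes that were higher, Itgb3 had the 312th largest change. Among the 181 that were lower, Itgb5, Itgb7 and Itga6 had the 56th, 57th and 64th largest. Itgb3 was thus close to the 2-fold limit of the deposited list, where the smallest increase was 2.003-fold, while an increase of 1.9998-fold was just outside it. Size was not the only condition, since 252 probe sets past 2-fold are not on the list. For decreases the nearest values were 0.4992 of the M-CSF alone level inside and 0.5001 outside.

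**Figure D3:**
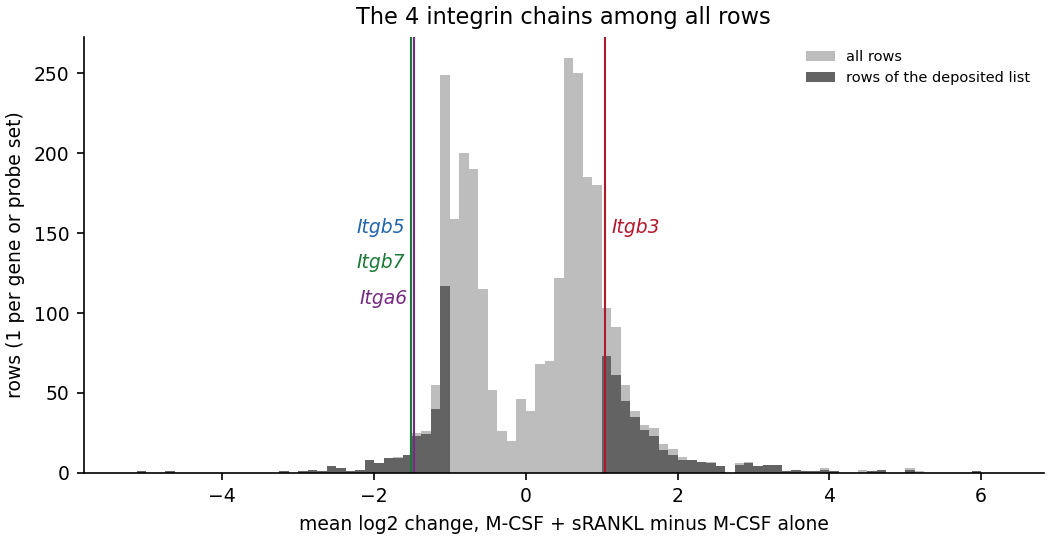
Number of rows (vertical axis, 1 row per named gene or unnamed probe set) by mean log2 change with sRANKL, with rows of the deposited list in dark grey and lines at the 4 integrin chains. Few of the 2859 rows lie near 0, Itgb3 lies at 1.04 just inside the listed increases, and the other chains lie between -1.52 and -1.47.

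Whether the level of a chain differed between experiments was tested over both dishes of each experiment, a contrast at right angles to the one that chose the members. It was not wholly free of the choice, since a large spread within the groups would have kept a gene off the list. By limma's F test with treatment as a term, 14.6% of rows differed between experiments at an adjusted p under 0.05. None of the 4 chains did, by limma or by limma-trend, and none had an unadjusted p under 0.05, where 869 of the 2859 rows did. Itgb3 was close to that limit, with an unadjusted p of 0.0518 by limma's F test. Itga6 was at 0.0695, Itgb7 at 0.0887 and Itgb5 at 0.669 by the same test. The adjusted p from limma was 0.168 for Itgb3, 0.199 for Itga6, 0.232 for Itgb7 and 0.763 for Itgb5. The means of the experiments spanned 0.45 log2 units for Itgb3, 0.50 for Itgb7, 0.43 for Itga6 and 0.15 for Itgb5. With 2 dishes per experiment, differences of this size between experiments were not resolved. Each experiment was a separate pool of mice and carries a different month in its array labels, so pool and month cannot be told apart.

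Partner dishes deviated from their group means the same way in all 3 experiments for Itgb3 and in Experiments 1 and 3 for Itga6 and Itgb7. For Itgb3, Experiment 1 was above the mean by 0.21 log2 units with sRANKL and by 0.35 with M-CSF alone. For Itga6, Experiment 1 was below the mean in both groups, by -0.20 and -0.22, and Experiment 3 above it, by 0.26 and 0.18. For Itgb5 the dishes of Experiment 3 went opposite ways, at -0.14 with sRANKL and 0.08 with M-CSF alone. Itgb7 had its widest deviations with sRANKL, at 0.45 in Experiment 1 and -0.37 in Experiment 3, against 0.03 and -0.16 in the partner dishes.

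**Figure D4:**
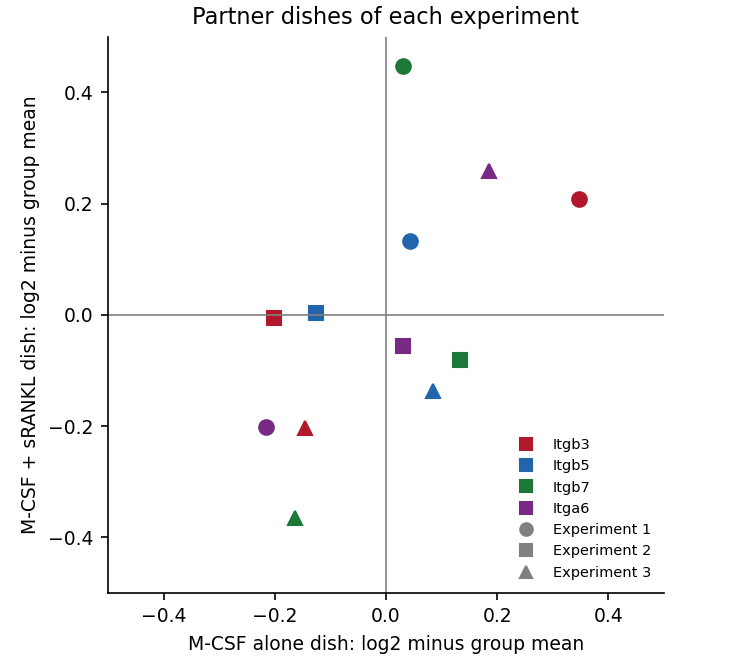
Deviation of each dish from its group mean (log2 units) for the M-CSF alone dish (horizontal) and the sRANKL dish (vertical) of the same experiment, coloured by chain. Itga6 in Experiments 1 and 3 and Itgb3 in Experiments 1 and 3 deviated the same way in both dishes, whereas Itgb5 in Experiment 3 lay at 0.08 and -0.14.

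Of 10 listed markers of osteoclast differentiation 4 have a name, and all 4 were higher with sRANKL, as Itgb3 was. Only genes called changed carry a name, and 341 of the 522 named genes were higher, so nothing is read from this count. Acp5, the tartrate-resistant acid phosphatase, had an intensity of 2387, 3358 and 2372 in the sRANKL dishes and 341, 187 and 224 in the partner dishes of Experiments 1, 2 and 3. Ctsk, the collagen-degrading cathepsin K, had 701, 1280 and 845 against 118, 98.7 and 90.2. The control dish of Experiment 1, which had the highest Itgb3 of the 3 control dishes, also had the highest Acp5 and Ctsk. The sum of the 4 markers was 795 in that dish and 473 and 551 in Experiments 2 and 3. The sRANKL dish of Experiment 1 also had the highest Itgb3 of its group, but the lowest sum of these markers, 5006 against 7030 and 5264. Without Experiment 1 the increase in Itgb3 was 2.16-fold, against 2.06-fold with all experiments. The part of differentiation in the Itgb3 level of that dish was not tested.

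Markers of other cells that carry these chains were few among the named genes. Itgb3 is also the beta chain of the platelet fibrinogen receptor, and of 10 megakaryocyte markers 1 has a name, Ppbp, a platelet chemokine. Its intensity was 2980 to 3795 with sRANKL and 554 to 1082 with M-CSF alone. Of 10 dendritic cell markers 3 have a name. The lectin Cd209a was at 0.147 of its M-CSF alone level, while Ccr7, a chemokine receptor, and Bst2, an interferon-induced membrane protein, rose 5.25-fold and 2.41-fold. Ccr2, the chemokine receptor of inflammatory monocytes and the only 1 of 10 monocyte and macrophage markers with a name, was at 0.49. Of 10 neutrophil markers the granule proteases Ctsg and Prtn3 and the peroxidase Mpo have a name. They rose 4.26-fold, 3.27-fold and 2.49-fold, and their summed intensity was 4618 to 7842 with sRANKL and 1390 to 2095 without it. Ccl5 of the T and NK cell list was at 1692 to 3616 against 174 to 423, and the 2 stromal and endothelial markers, Pecam1 and Dcn, summed to 312 to 372 against 123 to 135. No B cell, mast cell or basophil marker has a name. The part of these cells in the integrin signals was not tested.

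Other genes of integrin function were taken from lists of ligands, of adhesion signalling and podosomes, and of membrane partners. Only genes called changed carry a name, so each count covers a minority of its list. Every member described here passed limma's test in the direction stated, which that choice largely fixed, so nothing is read from it. Over all rows, 44.9% were higher and 33.2% lower by the same test. Of 51 listed ligands 2 have a name. Vcam1, which alpha 4 beta 1 and alpha 4 beta 7 bind, had an intensity of 306, 335 and 441 in the sRANKL dishes and 149, 115 and 145 in the partner dishes, and rose 2.63-fold. L1cam, a neuronal adhesion molecule with an RGD sequence, was at 0.457 of its M-CSF alone level in a narrow range, with log2 changes from -1.16 to -1.11. The vitronectin receptor ligands Vtn and Spp1 and the laminin chains are among the unnamed genes and were not analysed here.

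Of 92 genes of adhesion signalling and podosomes 7 have a name, 6 of them higher and 1 lower. Their median log2 change was 1.18, near the 1.17 of all named genes, of which 341 of 522 were higher. Fscn1, which bundles actin, rose 7.87-fold, and Scin, the actin-severing adseverin, 4.93-fold. Cttn, cortactin of podosomes, rose 2.27-fold and Myo10, a myosin that carries beta integrins into filopodia, 2.05-fold. Fgr, a Src family kinase of myeloid cells, rose 2.03-fold, from 234, 237 and 194 to 443, 463 and 440.3. Rasgrp3, which activates Ras and Rap1, was the member that was lower, at 0.152 of its M-CSF alone level. Its intensity was 29.5, 24.9 and 20.5 in the sRANKL dishes and 96.0, 300.0 and 149 in the partner dishes, so its log2 change varied widely, from -3.59 to -1.70.

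Of 49 membrane partners 11 have a name, 9 of them higher and 2 lower. Their median log2 change was 1.25, again near the 1.17 of all named genes. The pericellular proteases Mmp14 and Mmp9, both known to associate with integrins, rose 24.0-fold and 15.8-fold, and Pdpn, podoplanin, rose 14.5-fold. Met, the receptor of hepatocyte growth factor, rose 10.2-fold, and the glycoprotein Cd200 3.56-fold. These 2 had the lowest M-CSF alone intensities of the 11, at 24.6 to 36.0 for Met and 35.4 to 38.0 for Cd200. Cav1, caveolin 1, rose 2.38-fold, and Sdc4, syndecan 4, a co-receptor of integrins at focal adhesions, 2.07-fold. Tm4sf19 and Tm4sf1, tetraspan membrane proteins, rose 2.13-fold and 2.03-fold. The endocytic receptor Lrp1 was at 0.472 and the lipid receptor Trem2 at 0.449 of the M-CSF alone level.

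**Figure D5:**
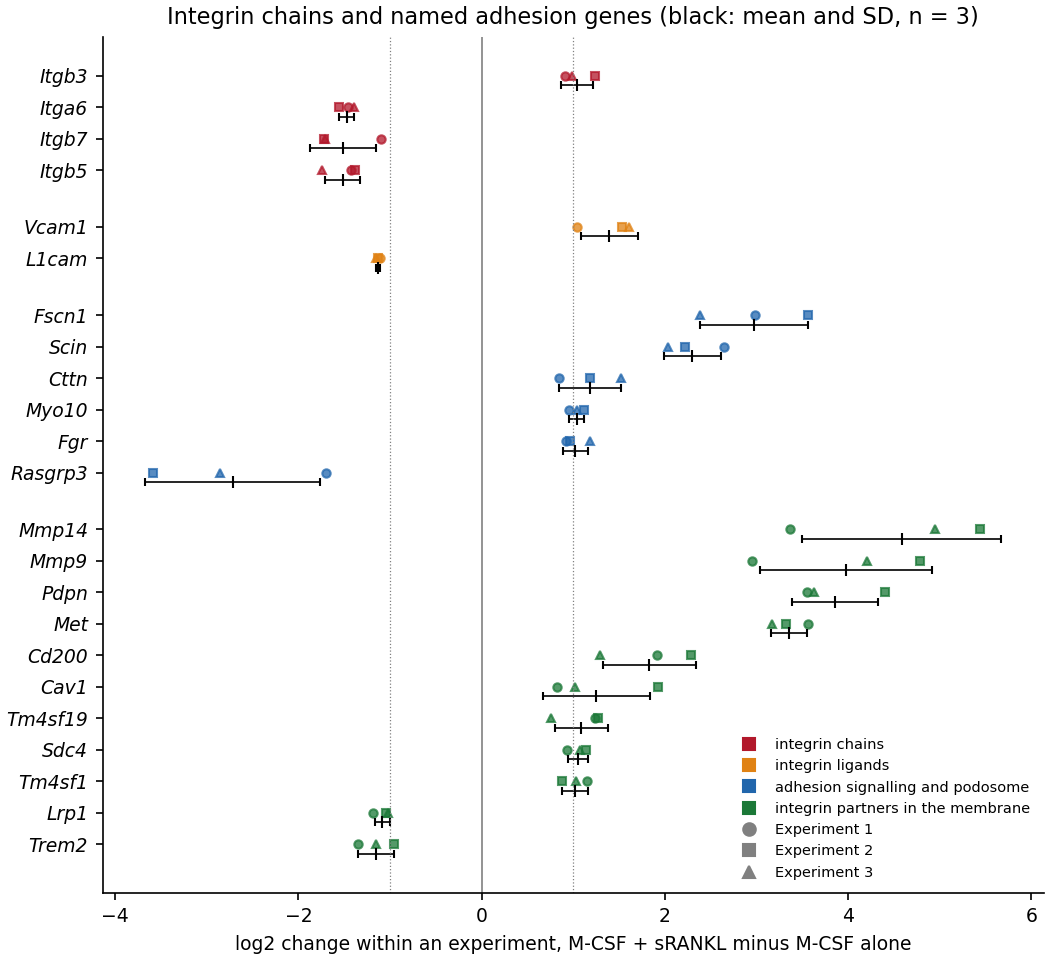
Log2 change within each experiment (symbols; horizontal axis, dotted lines at 2-fold) for the 4 integrin chains and other named genes of the 3 adhesion lists, with black bars for mean and SD (n = 3). Each gene shown moved in 1 direction in all experiments, and Itgb3 lay with the smaller increases near 2-fold.

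For each chain the named genes with the most similar profile were found from the root mean square difference of log2 values over the 6 arrays, after each of the 521 other genes was centred on its own mean. Treatment dominates this measure, and the arrays are shared. Nearest to Itgb3 were Nfkbia, the inhibitor of NF-kB, at 0.10 log2 units, Sdc4 at 0.11 and Dusp2, a MAP kinase phosphatase, at 0.13. The median over named genes that changed in the same direction was 0.38. Nearest to Itgb5 were Dapk1, a cell death kinase, at 0.09, Pink1, a mitochondrial kinase, at 0.11 and Entpd1, the ectonucleotidase CD39, at 0.11 (median 0.26).

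Among the 3 genes nearest to Itgb7 were Dusp22, a phosphatase, at 0.16 and Lsp1, a leukocyte actin-binding protein, at 0.19 (median 0.35). Nearest to Itga6 were Ccng2, cyclin G2, at 0.07, Trp53inp1, a p53-induced nuclear protein, at 0.10 and Sesn1, a sestrin, at 0.10 (median 0.28). The lower chains were not each other's nearest genes. Itgb7 was the 52nd nearest gene to Itgb5 and Itga6 the 81st, at 0.22 and 0.25 log2 units. From the side of Itgb7, Itgb5 was the 9th nearest gene, and Itgb7 and Itga6 were 0.41 apart.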

How the data were processed

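The authors deposited linear RMA intensities for 2890 probe sets, and the submitters' processing notes name R 2.71. The filter that selected these is not described in the sources used here. Names and positions come from the authors' deposited list of 656 probe sets, 553 of them with a symbol. Its positions have no stated build, and the comparison columns on it (means, fold changes, standard errors and p-values) were not used. Symbols were updated through Entrez numbers against RefSeq (GRCm38.p6), where 547 were found. The probe set with the highest mean over 6 arrays stood for each gene. The list of integrin chains and all other lists were chosen with earlier results of these data known.

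Log2 intensities entered limma 3.58.1 in R 4.3.3, with lmFit and eBayes and no block, and p-values were adjusted over 2859 rows (Benjamini-Hochberg). The experiment number pairs the samples, because the dishes of an experiment came from 1 pool. Over all rows, partner dishes deviated together from their groups, with correlations of 0.605, 0.564 and 0.645. The fits were also run on simulated data whose noise was independent between arrays. That check thus does not cover the fit without a block when partner dishes deviate together. Named were the 4 chains, every named gene of the adhesion lists, marker lists by count (and by gene where 3 or fewer were found; Acp5 and Ctsk were picked from the 4 osteoclast markers after their values were seen), and the 3 most similar genes per chain. A few genes that this rule selects are not reported here, though the counts and medians of lists include them. Summaries used Python 3.11.15 with numpy 2.4.6 and pandas 2.3.3, and plots matplotlib 3.10.9. Promoter motifs were searched on both strands. Alternatives were blocks, the methods' t-test, limma-trend, median centring, quantile normalisation, a filter at a mean log2 of 7, means of probe sets, ratios of linear means and leaving out arrays or experiments. Counting identical rows once was chosen after seeing the data. Precision is limited by the 3 arrays of each group.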

Additional observations from a re-analysis of the deposited data

How the results depend on the processing

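The direction of all 4 chains and of the shift of Itgb3 relative to each other chain was the same in every alternative run, as the selection of the members largely fixed. With quantile normalisation of the filtered table, the log2 change was -1.78 for Itgb5, -1.80 for Itgb7 and -1.73 for Itga6. The shift of Itgb3 was then 2.81 relative to Itgb5, 2.84 relative to Itgb7 and 2.77 relative to Itga6. The shifts relative to Itgb5 and Itga6 thus moved by more than their SD over the experiments. With each array centred on its median the log2 change was -1.65 for Itgb5, -1.64 for Itgb7, -1.60 for Itga6 and 0.91, under 2-fold, for Itgb3. These steps, quantile normalisation and centring, moved the median log2 change of all rows from 0.42 to 0.21 and 0.29, respectively. Leaving out 1 array gave log2 changes of 0.94 to 1.22 for Itgb3, -1.58 to -1.45 for Itgb5, -1.73 to -1.33 for Itgb7 and -1.60 to -1.37 for Itga6. Leaving out 1 experiment gave shifts of Itgb3 of 2.48 to 2.68 relative to Itgb5, 2.35 to 2.83 relative to Itgb7 and 2.38 to 2.59 relative to Itga6. With the experiment number as a replicate block 2613 rows changed against 2235 without it, and between 1864 and 2348 changed when 1 array was left out. No chain passed the test between experiments in any alternative. Its adjusted p for Itgb3 ranged from 0.0698 to 0.902 over the alternatives. That test called 417 rows, and 279 to 475 with 1 experiment left out. Some rows of the table hold identical values. When these were counted once, 2672 rows remained for the comparison of treatments, of which 1283 were higher and 835 lower with sRANKL. The test between experiments then called 298 rows.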
